A study of Mus musculus with 14 samples.

Results

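The Shank, Dlg and Dlgap genes encode the main protein scaffolds of the excitatory synapse. The 10 genes described here are Shank1, Shank2, Shank3, Dlg1, Dlg2, Dlg3, Dlg4, Dlgap1, Dlgap2 and Dlgap3. They were taken by symbol, with earlier results of these data known. All 10 were found among the 24444 genes of each of 2 expression tables of mouse cortex. Dlgap4 and Dlgap5 were not among the 10; Dlgap4 is given below with other scaffolds of the postsynaptic density.

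Polyadenylated RNA of whole cortex was sequenced from 14 mice of 4 genotypes, 1 library each. In the miR29Nestin mice (P40, n = 3), both miR-29 clusters, ab1 and b2c, were floxed and deleted with Nestin-Cre, and they were set against miR29WT mice of the same age (n = 3). In the Dnmt3a-mi5 mice (4.5 months, n = 4), a CRISPR knock-in changed the 5 miR-29 sites of the Dnmt3a 3′ UTR from TGGTGCT to CACGGCT, and they were set against Dnmt3a-WT mice (n = 4). Nestin-Cre is active in the neural progenitors that give rise to neurons and most glia, so a change in these mice need not be that of one cell type. The labels do not say whether miR29WT mice carried floxed alleles or Cre. The first comparison asks what loss of the miRNAs does to cortical RNA, and the second what release of Dnmt3a alone from them does, in other mice, at another age and with other kits.

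At an excitatory synapse, the receptors are held opposite the transmitter release site by a layered scaffold under the membrane, the postsynaptic density. The Dlg proteins (membrane-associated guanylate kinases such as PSD-95, the product of Dlg4) bind the tails of NMDA receptors and of AMPA receptor auxiliary subunits. The Dlgap proteins (SAPAP or GKAP) bind the guanylate kinase domain of the Dlg proteins and, at their other end, the PDZ domain of the Shank proteins. The Shank proteins link this stack to Homer, to metabotropic receptors and to the actin of the spine.

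The mature miR-29 sequences are shown because the deletion removed all of them and because they share 1 seed, bases 2 to 8, given in capitals. They are from RefSeq (GRCm38.p6). miR-29a is encoded on chromosome 6, miR-29c on chromosome 1, and miR-29b once on each.
miR-29a-3p: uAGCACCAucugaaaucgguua
miR-29b-3p: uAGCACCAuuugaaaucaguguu
miR-29c-3p: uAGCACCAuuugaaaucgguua

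The 3′ UTRs of the 10 genes (GENCODE M21, GRCm38) were searched on the transcript strand for TGGTGCT, the 7 bases that pair with that seed. Only Shank1 and Dlg2 held it; the other 8 had no match in any annotated 3′ UTR. Of 11732 tested genes with an annotated 3′ UTR, 16.6% held the match, and in 3.60% it was followed by an A. The 3 matches are shown with the match in capitals, because the gene with a pair of them, both followed by A, was among those whose RNA showed the smallest difference in the miR29Nestin mice (below).
Shank1, base 1536 of 3235 in the 3′ UTR, chr7:44358862-44358887, plus strand: tccttctttaaTGGTGCTcaggtatg
Dlg2, base 2608 of 4630, chr7:92447214-92447239, plus strand: tcgggccagacTGGTGCTaacactgc
Dlg2, base 2722 of 4630, chr7:92447328-92447353, plus strand: gatcgtgtcacTGGTGCTatttttca

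The libraries were checked on Dnmt3a, the methyltransferase whose miR-29 sites the knock-in mutates. Its normalised count, the deposited log2 value turned back to a count scale, was 5275 to 5859 in miR29Nestin mice, against 1605 to 1724 in miR29WT mice. In the second table it was 1948 to 2249 in Dnmt3a-mi5 mice, against 1062 to 1234 in Dnmt3a-WT mice. The transcript A330023F24Rik, which spans Mir29b-2 and Mir29c, was listed at 8313, 10031 and 9992 in miR29Nestin mice, against 4119, 1230 and 1143 in miR29WT mice, so that miR29WT library 1 stood apart from the other wild-type libraries at this transcript. Without that library, Shank1 (−0.37), Shank3 (−0.54), Dlg4 (−0.32), Dlgap3 (−0.28) and Shank2 (−0.32) still passed the test, as log2 differences, and Dlg3 did not (−0.18, limma adjusted p = 0.053). The miR29 libraries held 9181192 to 14417313 reads in genes, estimated from the size of 1 read (85.4% to 88.6% of low values were whole multiples of it to within 0.05), and the depth of the other libraries is unknown. Libraries of one genotype correlated at 0.995 to 0.999 across all 24444 genes, those with no reads included. By Y-linked genes, 1 of 3 miR29Nestin mice and 2 of 3 miR29WT mice were male. The sex of the Dnmt3a mice cannot be read, because an effect separating 2 sets of libraries had been removed from their values. There the Y-linked genes Kdm5d (57.56) and Uty (35.26) were each at 1 value in libraries 1 and 2 of both genotypes. In libraries 3 and 4 Kdm5d was at 53.29 to 64.77.

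In the miR29Nestin cortex, 6 of the 10 scaffold genes fell and none rose. Those that fell were all 3 Shank genes, Dlg3, Dlg4 and Dlgap3, with mean normalised counts at 0.696 (Shank3) to 0.881 (Dlg3) of those in miR29WT mice. Dlg1, Dlg2, Dlgap1 and Dlgap2 did not pass the test. Across all 12014 tested genes, 19.1% were called in either direction, 10.03% lower and 9.02% higher (limma, Benjamini-Hochberg adjusted p under 0.05). The log2 differences of the 10 genes had a median of −0.22, and all were below 0, against a median of −0.01 over all tested genes. In 8 of the 10, every miR29Nestin library was below every miR29WT library, against 18.7% of all tested genes. At an unadjusted p under 0.05, 8 of the 10 passed, against 32.98% of all tested genes. Leaving out 1 library at a time, 4 to 6 of the 10 were called. RNA of whole cortex was measured, so fewer cells of a type and less RNA per cell cannot be told apart.

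**Figure D1:**
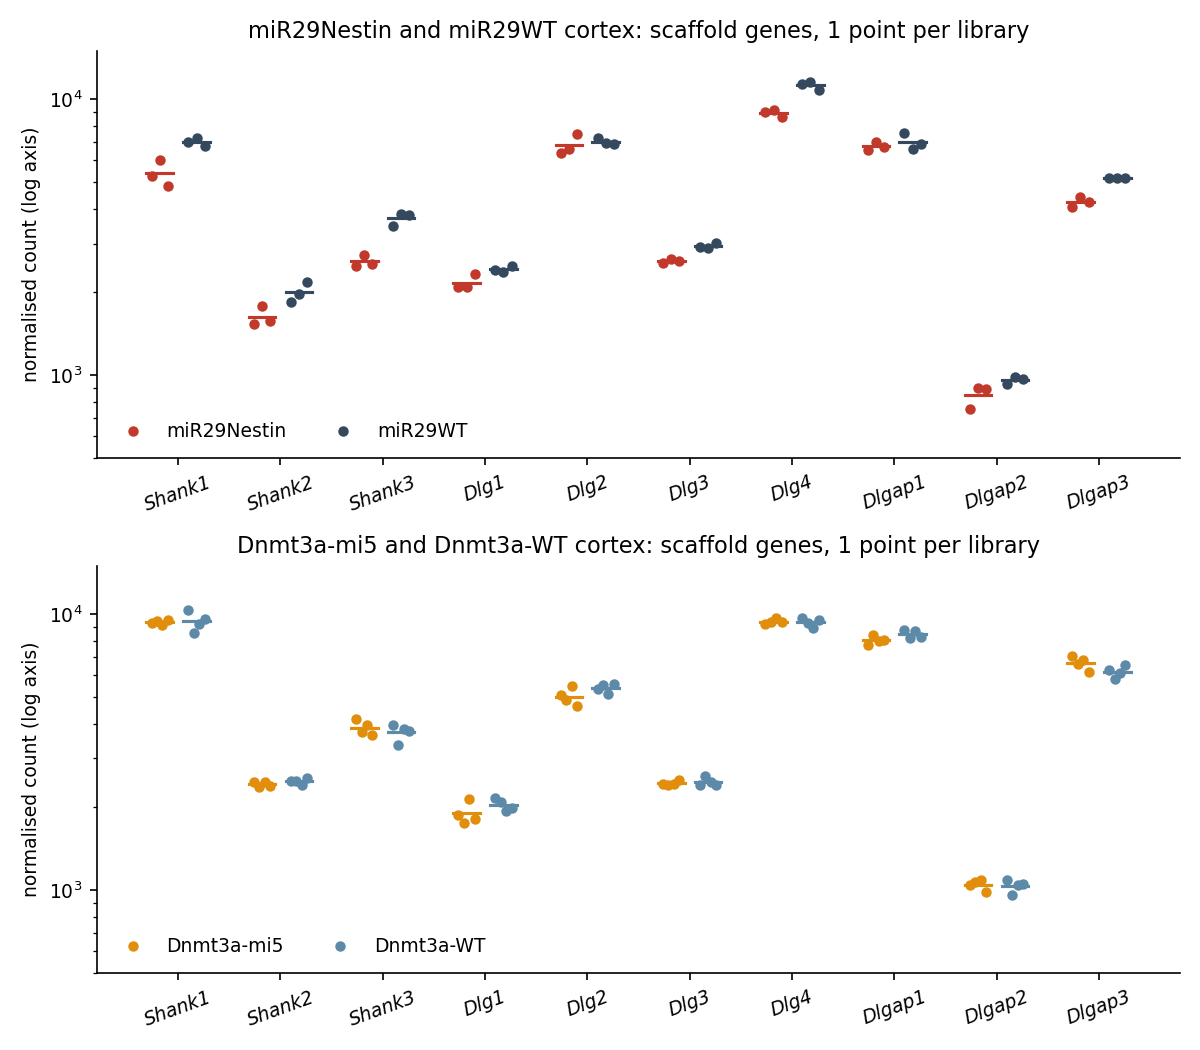
Normalised counts (log axis) of the 10 scaffold genes, 1 point per library with the group mean as a bar, in miR29Nestin and miR29WT mice (top) and in Dnmt3a-mi5 and Dnmt3a-WT mice (bottom). All miR29Nestin points lie below all miR29WT points for 8 genes, the exceptions being Dlg2 and Dlgap1, whereas the Dnmt3a-mi5 and Dnmt3a-WT points overlap for all 10.

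The Shank genes were considered first. Shank3, the Shank whose loss in humans is tied to Phelan-McDermid syndrome and autism, had normalised counts of 2495, 2730 and 2532 in miR29Nestin mice, against 3485, 3843 and 3817 in miR29WT mice. Every mutant library was below every wild-type library by a wide margin. Shank3 averaged 2586 ± 126 in miR29Nestin mice and 3715 ± 200 in miR29WT mice (SD, n = 3 each), a ratio of 0.696 and a log2 difference of −0.49 (SE 0.06, adjusted p = 2.12e-04 by limma). It had the largest fall of the 10, and 0.991% of all tested genes had a more negative log2 difference. Shank3 is on chromosome 15, at chr15:89499623-89560261 in GRCm38, on the plus strand.

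Shank1, a Shank largely confined to brain, had 5282, 6033 and 4849 in miR29Nestin mice, against 6988, 7241 and 6773 in miR29WT mice. The groups did not overlap, and the mutant libraries were more spread out than the wild-type ones. The means were 5388 ± 599 in miR29Nestin and 7001 ± 234 in miR29WT mice, a log2 difference of −0.37 (SE 0.07, adjusted p = 4.08e-03 by limma). Shank2, also known as ProSAP1, had 1534, 1783 and 1567 in miR29Nestin mice, against 1835, 1975 and 2183 in miR29WT mice. The groups did not overlap, but the highest mutant library lay just under the lowest wild-type one. The log2 difference of Shank2 was −0.27 (SE 0.07; limma gave an adjusted p of 0.0246), and this call was less firm than those of Shank1 and Shank3. It was lost without miR29Nestin library 1 (adjusted p = 0.062) or 3 (0.053), and without miR29WT library 2 (0.074) or 3 (0.100), whereas Shank1 and Shank3 passed under all 17 alternatives run.

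Of the Dlg genes, Dlg4 (PSD-95), the gene with the highest level per kilobase of the 10 in miR29WT cortex, had 9026, 9168 and 8603 in miR29Nestin mice, against 11406, 11576 and 10818 in miR29WT mice. Each group was tight and the gap between them was larger than the spread within either. The means were 8932 ± 294 in miR29Nestin and 11266 ± 398 in miR29WT mice, a ratio of 0.793 and a log2 difference of −0.33 (SE 0.05, adjusted p = 6.83e-04 by limma), called under all 17 alternatives. Dlg3 (SAP102), an X-linked Dlg abundant in the young brain, had 2542, 2643 and 2589 in miR29Nestin mice, against 2919, 2891 and 3018 in miR29WT mice. The groups did not overlap, and the log2 difference was small, −0.17 (SE 0.05, adjusted p = 0.0250 by limma). With sex as a covariate the adjusted p of Dlg3 was 0.035. Its call was lost without miR29Nestin library 2 (0.057) and without miR29WT library 1 (0.053), 2 (0.061) or 3 (0.103).

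Dlg1 (SAP97), which is also expressed outside the brain, had 2079, 2080 and 2333 in miR29Nestin mice, against 2402, 2364 and 2495 in miR29WT mice. The groups did not overlap, with the highest mutant library close under the lowest wild-type one. The log2 difference of −0.15 (SE 0.06) did not pass the test (adjusted p = 0.0836 by limma); it did pass without miR29Nestin library 3 (−0.20, 0.023) and with the replicate number as a block (0.034). With the trends of GC content and length removed, the difference of Dlg1 was −0.077, and it failed both without the block (0.260) and with it (0.203). Dlg2 (PSD-93 or chapsyn-110) had 6395, 6606 and 7466 in miR29Nestin mice, against 7251, 6951 and 6863 in miR29WT mice. The groups overlapped, and miR29Nestin library 3 was the highest of the 6. The log2 difference of Dlg2 was −0.04, with a 95% interval of −0.17 to 0.09 (adjusted p = 0.651 by limma), and its sign was positive under 4 of 17 alternatives.

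Dlgap3 (SAPAP3), the Dlgap gene with high expression in striatum whose loss in mice causes compulsive grooming, had 4064, 4431 and 4250 in miR29Nestin mice, against 5193, 5173 and 5197 in miR29WT mice. The 3 wild-type libraries were nearly equal, and all mutant libraries were below them. The means were 4249 ± 184 in miR29Nestin and 5188 ± 12.5 in miR29WT mice, a ratio of 0.819 and a log2 difference of −0.28 (SE 0.05, adjusted p = 2.28e-03 by limma), called under all 17 alternatives. Markers of striatal projection neurons, which a cortical dissection can include, did not pass the test in any of 9 genes. Of these, 6 had log2 differences below 0 and 3 above (median −0.12). Their summed normalised count varied widely, from 7060 to 16720 in miR29Nestin mice and from 9187 to 15926 in miR29WT mice. The part of striatal content in the lower Dlgap3 value was not tested.

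Dlgap1 (GKAP or SAPAP1), by contrast, had 6557, 6991 and 6711 in miR29Nestin mice, against 7563, 6614 and 6904 in miR29WT mice. These groups overlapped, and the log2 difference was −0.05, with a 95% interval of −0.17 to 0.07 (adjusted p = 0.530 by limma). It ranged from −0.0013 without miR29WT library 1 to −0.10 without miR29WT library 2, and was −0.01 under quantile normalisation and with GC content and length trends removed. Dlgap2, with the lowest normalised counts of the 10, had 752, 901 and 893 in miR29Nestin mice, against 925, 987 and 969 in miR29WT mice. The groups did not overlap, but the log2 difference of −0.15 (SE 0.07) did not pass the test (adjusted p = 0.139 by limma); with sex as a covariate it passed (−0.20, 0.043), and without miR29Nestin library 1 it was −0.08.

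**Figure D2:**
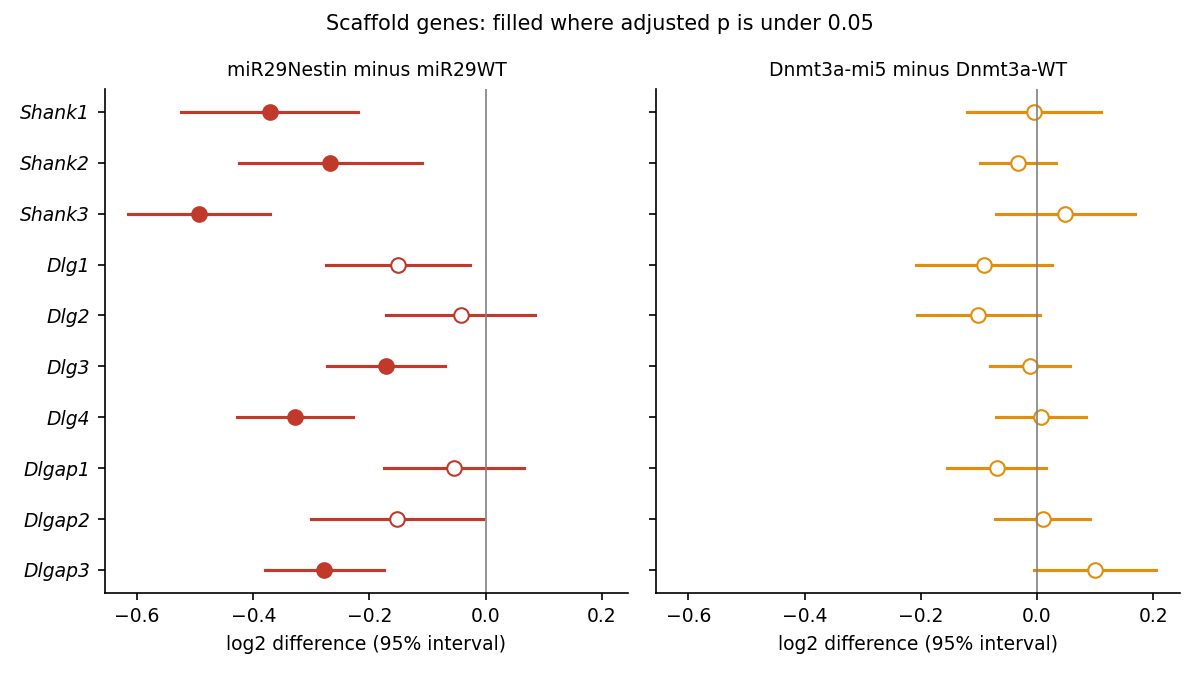
Log2 differences of the 10 genes with 95% intervals, miR29Nestin minus miR29WT (left) and Dnmt3a-mi5 minus Dnmt3a-WT (right), filled where the adjusted p was under 0.05. On the left 6 filled points lie below 0, with Shank3 lowest at −0.49, and on the right no point is filled.

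Within each family, the composition of the scaffold RNA was compared by normalised count per kilobase of the longest coding transcript; the Dlgap sum is that of Dlgap1, Dlgap2 and Dlgap3 and leaves out Dlgap4. Shank3 made up 31.3% to 34.0% of the Shank sum in miR29Nestin mice, against 34.1% to 35.7% in miR29WT mice. Dlg4 made up 42.3% to 46.1% of the Dlg sum in miR29Nestin mice, against 47.5% to 49.6% in miR29WT mice, and Dlg2 26.4% to 29.7%, against 24.1% to 25.0%. Dlgap1 made up 43.6% to 44.7% of the Dlgap sum in miR29Nestin mice, against 38.9% to 42.3% in miR29WT mice, and Dlgap3 47.1% to 47.3%, against 49.5% to 51.9%. For these 5 genes the groups did not overlap, so Dlg2 and Dlgap1 took a larger share, and Dlg4, Dlgap3 and Shank3 a smaller one, in every mutant library. The shares of a family add up to a whole and come from the counts tested above, so the 5 are not separate results. The mean Dlgap2 share was 8.79% in miR29Nestin and 8.80% in miR29WT mice, so the changes of Dlgap1 and Dlgap3 mirror each other. Exact two-sided permutation tests gave p = 0.1 for each of the 5, the smallest that 3 against 3 allows, and the shares of the other 5 genes overlapped. With the median or principal transcript length, chosen after seeing the data, the groups again did not overlap for Dlg2, Dlg4, Dlgap1 and Dlgap3, but those of Shank3 overlapped with the median length. In the second table the shares of all 10 genes overlapped between Dnmt3a-mi5 and Dnmt3a-WT mice, with a lowest exact permutation p of 0.0571, for Dlg2.

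By the longest coding transcript, the first 6 genes in the order of levels per kilobase were the same in both groups of the first table. In miR29Nestin mice it was Dlg4 (1412 ± 46.5 normalised counts per kilobase, SD, n = 3), Dlgap3 (1010 ± 43.7), Dlgap1 (941 ± 30.7), Dlg2 (873 ± 72.6), Shank1 (548 ± 61.0), Dlg3 (523 ± 10.2), Dlg1 (352 ± 23.9), Shank3 (351 ± 17.2), Dlgap2 (188 ± 18.7) and Shank2 (181 ± 15.0). In miR29WT mice it was Dlg4 (1781 ± 62.9, n = 3), Dlgap3 (1233 ± 2.97), Dlgap1 (980 ± 67.8), Dlg2 (899 ± 26.0), Shank1 (712 ± 23.9), Dlg3 (594 ± 13.4), Shank3 (504 ± 27.1), Dlg1 (394 ± 11.0), Shank2 (222 ± 19.5) and Dlgap2 (213 ± 7.12). Among neighbours in this order, the libraries of Dlgap3 and Dlgap1, Dlgap1 and Dlg2, Shank1 and Dlg3, Dlg1 and Shank3, and Dlgap2 and Shank2 overlapped in miR29Nestin mice. In miR29WT mice they overlapped only for Dlgap1 and Dlg2 and for Shank2 and Dlgap2, so Shank3 overlapped with Dlg1 in the mutant cortex and lay above it in the wild type. This turned round with the principal transcript length, by which Shank3 (363) lay below Dlg1 (464) in miR29Nestin mice and overlapped with it in miR29WT mice (521 and 519).

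In the older mice of the second table, Dlgap3 (1584 ± 88.3 normalised counts per kilobase in Dnmt3a-mi5 mice and 1471 ± 72.2 in Dnmt3a-WT mice, SD, n = 4 each) and Dlg4 (1486 ± 28.9 in Dnmt3a-mi5 and 1479 ± 51.7 in Dnmt3a-WT mice) were at the top and overlapped by the longest transcript. By the principal transcript Dlg4 lay above Dlgap3 without overlap, at 2695 against 1584 in Dnmt3a-mi5 mice and 2682 against 1471 in Dnmt3a-WT mice. By the longest transcript Shank1 was ranked 4, at 953 ± 19.2 in Dnmt3a-mi5 and 959 ± 77.0 in Dnmt3a-WT mice, ahead of Dlg2, and Dlgap2 was last. The tables differ in age, kit and normalisation, so no level was compared between them. The order depends on the transcript length used: with the median coding transcript 5 to 6 of the 10 genes kept their rank in the 4 genotypes, and with the longest principal transcript 6 to 8 did.

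**Figure D3:**
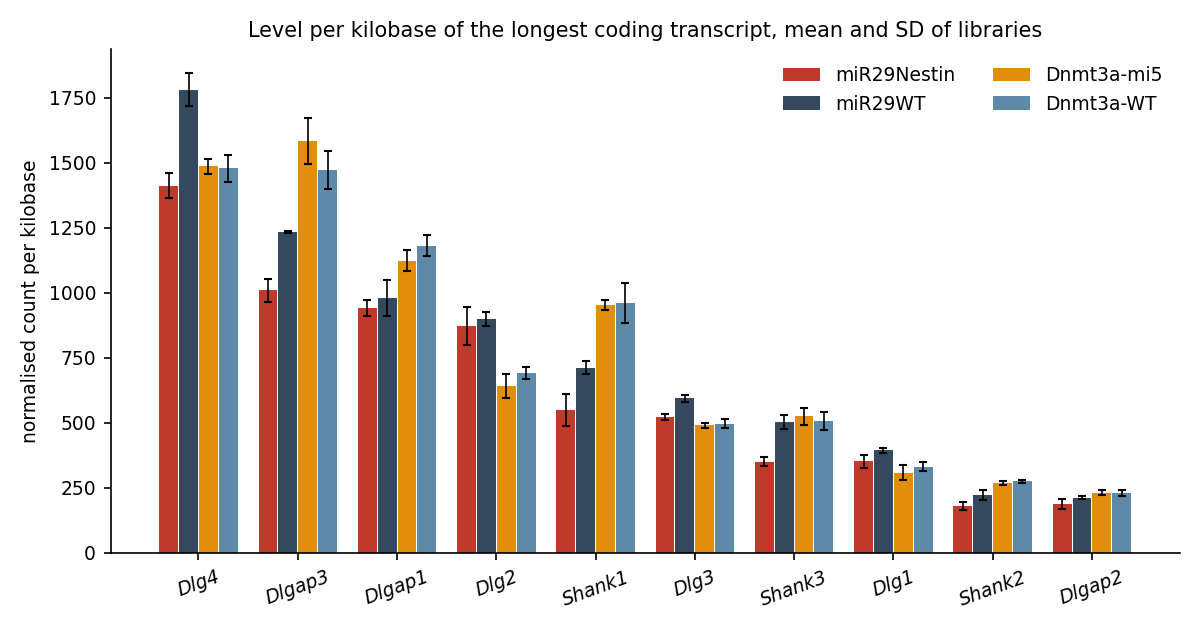
Mean normalised count per kilobase of the longest coding transcript for the 10 genes, ordered by miR29WT level, with bars for the 4 genotypes and SD as error bars. Dlg4 is highest in the miR29 mice (1412 in miR29Nestin, 1781 in miR29WT), while Dlgap3 and Dlg4 overlap at the top in the Dnmt3a mice by this length.

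The 10 genes differ widely in gene size, from 30.6 kb for Dlg4 to 1973 kb for Dlg2. The 5 shortest, Dlg4, Shank1, Dlg3, Shank3 and Dlgap3 (30.6 to 67.8 kb), all fell in the miR29Nestin cortex. Of the 5 longest, Dlg1 (212 kb), Shank2 (423 kb), Dlgap2 (752 kb), Dlgap1 (852 kb) and Dlg2 (1973 kb), only Shank2 did. Over all tested genes the split ran the other way: 19.7% of 1966 genes over 100 kb were called lower, against 8.14% of 9998 shorter genes. The GC content of the longest coding transcript was 63.9% for Dlgap3, 62.4% for Shank3 and 61.4% for Shank1, against a median of 50.3% over tested genes, and 43.8% for Dlg1 and 44.3% for Dlg2. It was 46.8% for Dlg4, 52.0% for Dlg3 and 55.0% for Shank2, which fell, and 50.9% for Dlgap1 and 55.3% for Dlgap2, which did not pass. For Dlg4 the longest transcript has 6326 bases, against 3488 for the principal one, whose GC content was not measured. Over all tested genes, 12.0% of 619 with a GC content over 60% were called lower, against 9.93% of 11345 others. With the trends of GC content and length removed from the log2 values of each library, 6 of the 10 were still called, and 7 with the replicate number also fitted as a block. Dlg2, the gene with a pair of miR-29 matches, was not called in either table, and Shank1, with 1, fell in the miR29Nestin cortex.

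In the Dnmt3a-mi5 cortex none of the 10 genes passed the test (limma), none did at an unadjusted p under 0.05, and all groups overlapped. Across the 10670 tested genes, 0.797% were called, 18.98% had an unadjusted p under 0.05, and the groups did not overlap in 12.01%. The median log2 difference of the 10 was −0.01. An effect separating 2 sets of 4 libraries had been removed from this table before deposit; with that effect as a term in the fit, 0.122% of all genes were called, and again none of the 10, with none at an unadjusted p under 0.05.

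Shank3 had 4177, 3724, 3961 and 3640 in Dnmt3a-mi5 mice, against 3975, 3365, 3844 and 3757 in Dnmt3a-WT mice. The libraries were intermixed, with a log2 difference of 0.05 and a 95% interval of −0.07 to 0.17. Dlg4 had 9242, 9339, 9664 and 9354 in Dnmt3a-mi5 mice, against 9663, 9262, 8937 and 9561 in Dnmt3a-WT mice. These too were intermixed, and the interval of the log2 difference was −0.07 to 0.09. Shank1 had 9328, 9454, 9121 and 9560 in Dnmt3a-mi5 mice, against 10321, 8513, 9230 and 9632 in Dnmt3a-WT mice. The mutant libraries all lay within the wild-type range, and the interval was −0.12 to 0.11. The 2 models were not compared in 1 test. They differ in age and kit, and also in the ratio of mean Dnmt3a counts, mutant over wild type. That ratio was 3.33 for miR29Nestin and 1.82 for Dnmt3a-mi5 mice.

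Dlgap3 had 7035, 6595, 6846 and 6176 in Dnmt3a-mi5 mice, against 6258, 5831, 6106 and 6559 in Dnmt3a-WT mice. Its libraries tended to be higher in the mutant but overlapped, and the log2 difference of 0.10 had an interval of −0.0043 to 0.20 (adjusted p = 0.282 by limma). The difference was 0.052 with GC content and length trends removed, 0.16 and 0.037 in the first and second set of libraries alone. All 9 striatal markers had log2 differences above 0 in this comparison (median 0.35), though none passed the test, and their sum was 8016 to 17130 in Dnmt3a-mi5 mice and 6765 to 11810 in Dnmt3a-WT mice; their part in the Dlgap3 value was not tested. Dlg2 had 5089, 4864, 5482 and 4653 in Dnmt3a-mi5 mice, against 5358, 5533, 5156 and 5578 in Dnmt3a-WT mice. Here the mutant values were lower on average but overlapped, with a log2 difference of −0.10 and an interval of −0.21 to 0.01 (adjusted p = 0.290 by limma), and it was −0.063 with GC content and length trends removed. The other 5 genes had log2 differences between −0.09 (Dlg1) and 0.01 (Dlgap2). Dlg1 was at 1755 to 2143 in Dnmt3a-mi5 and 1933 to 2150 in Dnmt3a-WT mice, Dlgap1 at 7710 to 8431 and 8171 to 8762, Shank2 at 2362 to 2472 and 2410 to 2552, Dlg3 at 2405 to 2507 and 2398 to 2581, and Dlgap2 at 984 to 1086 and 962 to 1090, in the same order of genotypes.

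RNA of proteins that sit beside these scaffolds was examined next, as lists drawn up by function, with earlier results of these data known. Nlgn2 is in both the receptor and adhesion list and the inhibitory list, and Camk2a in both the scaffold list and the excitatory neuron markers below. In the miR29Nestin cortex, 10.03% of all tested genes were called lower and 9.02% higher. Of 32 other scaffolds and enzymes of the postsynaptic density, 15 fell and none rose in the miR29Nestin cortex, with a median log2 difference of −0.20. The fallers with the smallest p included Iqsec2 (−0.54), an exchange factor for Arf GTPases; Cnksr2 (−0.58), a Ras pathway scaffold; and Ppp1r9b (−0.31), the spine protein spinophilin. Dlgap4, a Dlgap gene outside the 10, was at 3032 to 3088 in miR29Nestin mice, against 3502 to 4200 in miR29WT mice (−0.32, limma adjusted p = 5.06e-03). In the Dnmt3a-mi5 cortex 1 of the 32 passed, Baiap2 (IRSp53, a Shank-binding regulator of actin), which was higher (0.21), at 3283 to 3732 in Dnmt3a-mi5 mice and 2907 to 3045 in Dnmt3a-WT mice. No gene of the list was called there with the removed effect as a term, without the filter on low values, with GC content and length trends removed, in either set of libraries alone, or when any library other than Dnmt3a-WT library 2 was left out; 2 were called with a stricter filter. In the miR29Nestin comparison 8 of the 32 were called without miR29WT library 3.

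Of 22 tested glutamate receptor subunits, their auxiliary subunits, adhesion proteins and other partners of the scaffolds, 8 fell and 1 rose in the miR29Nestin cortex, with a median of −0.21. The other partners on the list were Kcna4, Kcnj10, Erbb4 and Lgi1. The shares over all tested genes were 10.03% lower and 9.02% higher. The NMDA receptor subunits Grin3a (−0.37) and Grin2d (−0.34) and the AMPA receptor auxiliary subunit Cacng8 (−0.29) fell. The NMDA receptor subunit Grin2c rose (0.46), at 871 to 982 in miR29Nestin mice and 553 to 749 in miR29WT mice. Without miR29WT library 2 or 3, the 9 calls dropped to 5 or 4. None of the 22 passed in the Dnmt3a-mi5 cortex. Under some alternatives 1 was called there, among them a stricter filter on low values, a fit without the mean-variance trend, and leaving out Dnmt3a-WT library 2.

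Of 11 tested Lin7, Cask and other MAGUK relatives, Lin7a, a PDZ protein that binds Cask, rose (0.33) and Cask, a presynaptic MAGUK, fell (−0.29) in the miR29Nestin cortex, and the median was −0.05. These 2 calls of 11, and the 3 of 14 in the next list, are near the 19.1% called over all tested genes and are not a result about the lists. In the Dnmt3a-mi5 cortex none of the 11 passed, and 1 did under some alternatives, among them a stricter filter and leaving out Dnmt3a-WT library 2. Of 14 regulators of scaffold palmitoylation, turnover and mRNA, 2 fell and 1 rose, with a median of −0.03. Those that fell were Zdhhc2 (−0.39), a palmitoyl transferase of PSD-95, and Zdhhc8 (−0.28), another palmitoyl transferase; Cdk5, a kinase that phosphorylates PSD-95, rose (0.16). Zdhhc2 was at 217 to 362 in miR29Nestin mice, against 419 to 439 in miR29WT mice. It was the 1 gene of this list that passed in the Dnmt3a-mi5 cortex as well, where it was at 382 to 419, against 463 to 489 in Dnmt3a-WT mice (−0.16, limma adjusted p = 0.0389). No gene of this list was called there under the same alternatives that left none in the scaffold list, and 2 were with the stricter filter. In the miR29Nestin comparison the 3 calls of this list became 1 without miR29Nestin library 2 or miR29WT library 1 or 2, 0 without miR29WT library 3, 5 with sex as a covariate and 6 with the replicate block.

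Scaffolds of other synaptic sites were measured for comparison. The shares of all tested genes called in the miR29Nestin cortex were again 10.03% lower and 9.02% higher. Of 18 scaffolds of the presynaptic active zone, 9 fell and 2 rose in the miR29Nestin cortex, with a median of −0.22, close to that of the Shank, Dlg and Dlgap genes. Pclo (piccolo, −0.54), Bsn (bassoon, −0.40) and the vesicle priming factor Unc13a (−0.32) fell, and the liprin Ppfia3 rose (0.30). Of 8 tested scaffolds and partners of the inhibitory postsynapse, 3 fell and 1 rose, with a median of −0.19. Those that fell included Slitrk3 (−0.24) and Mdga1 (−0.52), and Iqsec3 rose (0.22). Without miR29WT library 2 or 3, the 11 presynaptic calls became 7 and the 4 inhibitory ones 2. In the Dnmt3a-mi5 cortex none of either list passed. No test was made of a difference between lists.

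**Figure D4:**
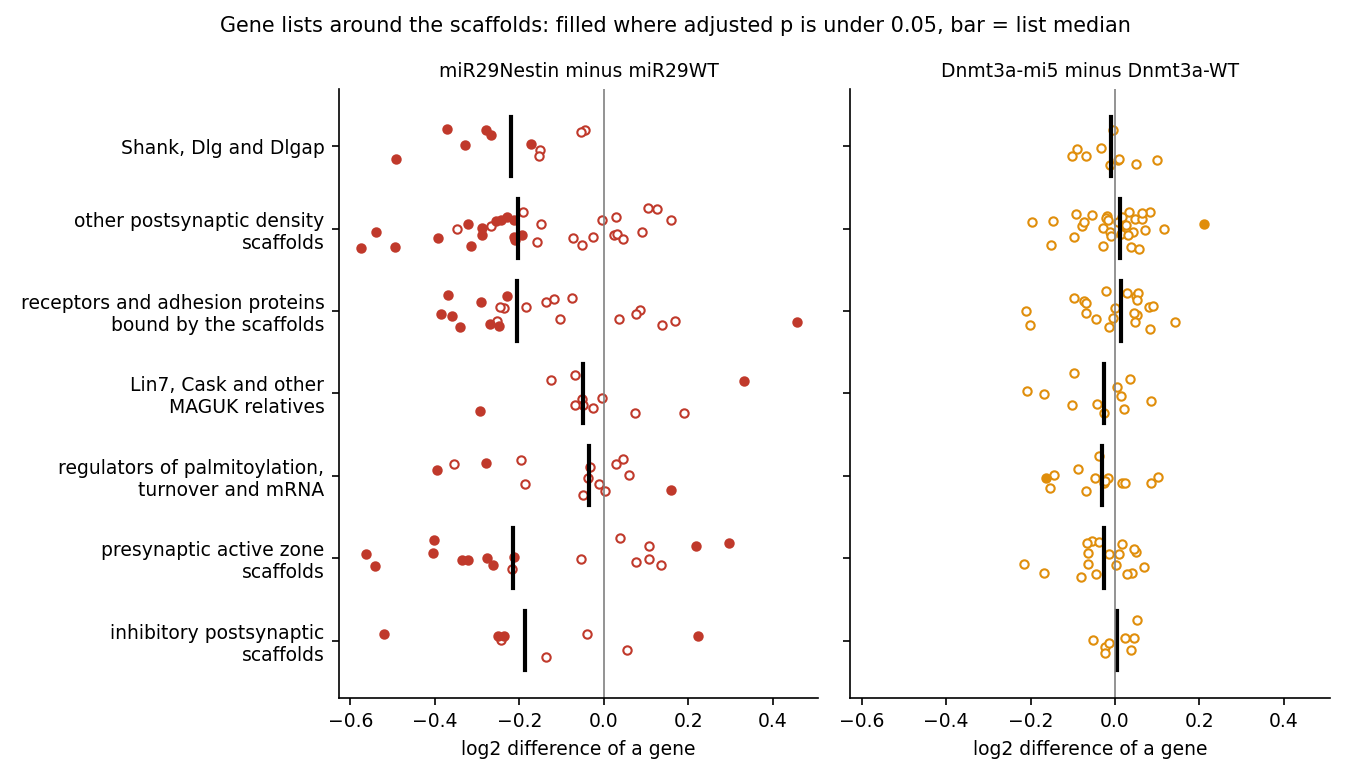
Log2 differences of single genes in the Shank, Dlg and Dlgap genes and 6 other lists, miR29Nestin minus miR29WT (left) and Dnmt3a-mi5 minus Dnmt3a-WT (right), filled where the adjusted p was under 0.05, with a bar at each list median. Medians on the left lie between −0.19 and −0.22 for 5 lists and near 0 for the Lin7 and Cask list and the regulators; all medians on the right lie near 0.

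Markers of cell types were set beside these differences in the miR29Nestin cortex, where 19.1% of all tested genes were called, 10.03% lower and 9.02% higher. Of 8 excitatory neuron markers 6 fell and none rose, and their summed normalised count was 76108 to 82699 in miR29Nestin mice, against 89405 to 102012 in miR29WT mice. Of 8 general neuron markers 2 fell and 1 rose (sum 119500 to 121263 in miR29Nestin and 121739 to 127454 in miR29WT mice), and of 8 inhibitory neuron markers 2 fell and 2 rose (11111 to 12218 in miR29Nestin and 11320 to 12117 in miR29WT mice). The excitatory and general neuron sums did not overlap between the genotypes, and the inhibitory neuron sum did. Of 8 astrocyte markers 4 rose and 1 fell, with a sum of 64076 to 69247 in miR29Nestin and 59012 to 60926 in miR29WT mice. Of 7 tested leptomeningeal fibroblast markers 5 rose, with a sum of 9632 to 10864 in miR29Nestin and 4564 to 7523 in miR29WT mice.

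Of 8 oligodendrocyte markers 2 rose, and of 6 markers of their precursors 2 rose, counts too small to be read against that share, and none of 8 microglial or 7 endothelial markers passed, nor did the 1 tested choroid plexus marker. Their sums were 106391 to 118956 in miR29Nestin and 97706 to 108856 in miR29WT mice for oligodendrocytes, and 4769 to 5174 and 4036 to 4446, in that order, for the precursors. No marker of any list was at 0 throughout a group. The part of these cell type differences in the lower scaffold RNA was not tested. In the Dnmt3a-mi5 cortex no excitatory, inhibitory or general neuron marker passed; 1 astrocyte and 2 microglial markers fell and 1 endothelial marker rose, where 0.797% of all tested genes were called. The astrocyte sum was 60363 to 62675 in Dnmt3a-mi5 mice, against 68014 to 72212 in Dnmt3a-WT mice, without overlap. Of the 8 astrocyte markers, however, 4 had log2 differences below 0 and 4 above (median −0.03), so the lower sum was not a fall of the whole list. The excitatory neuron sum was 74412 to 84299 in Dnmt3a-mi5 mice and 79016 to 89340 in Dnmt3a-WT mice. Choroid plexus sums differed widely between libraries of both genotypes, from 302 to 13908 in Dnmt3a-mi5 mice and from 119 to 11825 in Dnmt3a-WT mice, and their part in the scaffold values was not tested.

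**Figure D5:**
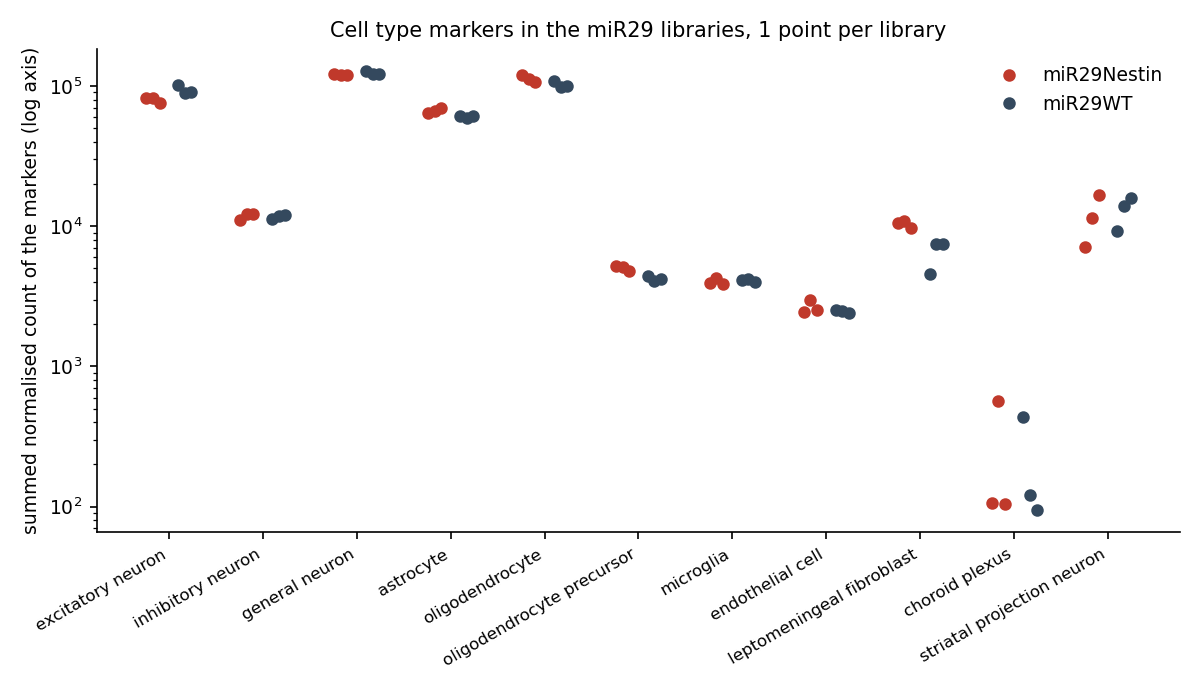
Summed normalised counts (log axis) of cell type markers in the miR29Nestin and miR29WT libraries, 1 point per library. The excitatory neuron sum is below all wild-type libraries in every miR29Nestin library, and the astrocyte, oligodendrocyte precursor and leptomeningeal sums are above them.

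Averaged over the 10 genes, in which deviations of single genes can cancel, the deviation of a library from its group mean lay between −0.05 and 0.05 (log2). Among 10600 other genes compared, the deviations most like this mean over the 14 libraries were those of Fbxo8 (Pearson r = 0.956), Zscan26 (0.946), Ralgapb (0.930), Pcdhga10 (0.923) and Spry2 (0.909). These correlations describe small differences between libraries of a genotype, pooled over both tables, whose kits and ages differ. The 5 genes are the highest of the 10600, so high values of r can come from that choice alone. None of the 5 was called in either table.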

How the data were processed

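Stranded poly-A libraries of mouse cortex were read for 50 cycles as pairs, per the labels' protocols (RNeasy and TruSeq for the miR29 mice, Direct-zol and KAPA for the Dnmt3a mice). Cutadapt, STAR, Salmon, DESeq2 and the builds hg19 and mm9 are named in the submitters' processing notes, with no versions or roles. The authors deposited 1 table of log2-scale values per model, in the form that their DESeq2 variance stabilisation gives. The values were turned back here to normalised counts for display, levels per kilobase, shares and sums. For the Dnmt3a mice these are adjusted values, because an effect had been removed before deposit. There 2546 genes had a value below the level of a count of 0. Within each table, log2 values were compared with limma 3.58.1 (R 4.3.3) with a mean-variance trend, over genes whose mean lay at least 1 (log2) above the lowest value, with Benjamini-Hochberg adjustment over all of them and a call at an adjusted p under 0.05; the fit was tested on simulated data. Columns of the Dnmt3a table carry repeated replicate names, so its libraries are numbered in column order.

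Deviations of same-numbered miR29 libraries, numbered in the labels, correlated at 0.335, 0.204 and 0.186, and those of differently numbered ones at −0.327 to 0.178. So few libraries per group cannot show that same-numbered ones belong together, and the number was fitted as a block only as an alternative. In the Dnmt3a table the gene means of 2 sets of 4 libraries were equal to within 5.5e-09, so an additive effect had been removed and the fit counts 1 degree of freedom too many. Named were all 10 genes, Dnmt3a, up to 4 called genes per list with the smallest p in the miR29 table and every one called in the Dnmt3a table; Dlgap4 and A330023F24Rik were added after their values were seen, and some genes the rule names are not reported here. The genes and lists were chosen with earlier results of these data known.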

Additional observations from a re-analysis of the deposited data

Results flagged for a closer look

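In Dnmt3a-mi5 mice, Dlg3 had a normalised count of 2507 in library 4, while the other 3 libraries lay between 2405 and 2422. The gap to its nearest neighbour was 0.835 of the range of the group, above the critical ratio of Dixon's test for 4 libraries. Chance flags about 1 in 20 such groups, and 20 groups were examined. The wild-type libraries of Dlg3 spanned 2398 to 2581, so this library lay within their range.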

How the results depend on the processing

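The calls of Shank1, Shank3, Dlg4 and Dlgap3 in the miR29Nestin cortex held under all 17 alternatives, with log2 differences of −0.45 to −0.30, −0.54 to −0.43, −0.36 to −0.27 and −0.31 to −0.24. Shank2 and Dlg3 were lost when single libraries were left out, as given above. Across all genes, 2289 were called, 1399 to 2314 when 1 library was left out (1474 without miR29Nestin library 2, 1399 and 1435 without miR29WT libraries 2 and 3) and 3037 with the replicate block. The block made Dlg1 pass (adjusted p = 0.034); with GC content and length trends removed it made Dlgap2 pass (0.047), and it changed no other call of the 10. Dlg2 changed sign under quantile normalisation (0.0076), with GC content and length trends removed (0.043 without and with the block) and when libraries were left out (−0.11 to 0.00063).

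In the Dnmt3a table no alternative called any of the 10 genes. Across all genes it called 85, but 25 with no filter on low values, 13 with the removed effect as a term, 23 with GC content and length trends removed, 8 to 175 depending on the library left out (175 without Dnmt3a-WT library 2, fewer than 85 without any other), and, in alternatives chosen after seeing the data, 0 and 4 in the first set (libraries 1 and 2 of each genotype) and the second set alone. The small differences of the 10 changed sign in places. Under quantile normalisation Shank1 was at 0.0058 and Dlg3 at 8.6e-05, and with trends removed Dlgap2 was at −0.016. In the first set alone Shank1 was at 0.0024 and Dlg4 at −0.025; in the second alone Shank3 was at −0.00097, Dlg1 at 0.0068, Dlg3 at 0.016 and Dlgap2 at −0.011. With 1 library left out the ranges were −0.051 to 0.038 for Shank1, −0.024 to 0.0080 for Dlg3, −0.014 to 0.022 for Dlg4 and −0.016 to 0.032 for Dlgap2. The cause of these shifts was not tested. No paired analysis was possible because the columns of the Dnmt3a table carry repeated replicate names.

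Requiring an A after the match left 1 of 2 genes with a miR-29 match. In miR29WT mice 5 (median transcript length) or 6 (principal) of the 10 ranks per kilobase held. The depth of the Dnmt3a libraries is unknown, so counting error there could not be set against differences this small.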
